A study of Mus musculus with 6 samples.

Results

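Dentate gyrus granule neurons were the largest panel-defined class of excitatory neuron in these hippocampal libraries. They made up 8749 of the 44736 barcodes that passed the quality filters (19.6%), and 67.8% of the 12900 excitatory barcodes that a marker panel could assign to a hippocampal field. Of all 35185 excitatory barcodes they made up 24.9%, since most were assigned to no panel. A barcode counted as a granule neuron when it held at least 2 UMIs of the neuronal genes Rbfox3, Syt1 and Snap25 together, at most 1 UMI of Gad1 and Gad2 together, and at least 3 UMIs summed over Prox1, Glis3, Plk5, Stra6 and Dsp. That sum also had to exceed the sums of 3 other panels, for CA1, CA3 and CA2 pyramidal neurons. Members were thus chosen by these measured counts, so a difference in them between classes is no finding. A UMI, or unique molecular identifier, counts 1 captured RNA molecule.

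Granule neurons are the principal cells of the dentate gyrus. They receive the perforant path from the entorhinal cortex and send mossy fibres to CA3 pyramidal neurons and to hilar cells. Prox1, a homeobox transcription factor, is needed for the formation and upkeep of their identity, and they are the excitatory neurons that are still added to the rodent hippocampus in adult life. Their firing is sparse, and they are rich in calbindin and in neuropeptides packed into mossy fibre vesicles.

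The 6 libraries came from the hippocampus of mice aged 6 months, with 2 libraries in each of 3 groups. One group held 5×FAD mice treated with Aβ3FTnAu, which the series title describes as a protein and gold nanostructure directed at amyloid-β plaques, another held 5×FAD mice given PBS, the saline vehicle, and the last held wild-type littermates given PBS. The 5×FAD line carries human transgenes with familial Alzheimer's disease mutations, APP among them, driven by the neuronal promoter of mouse Thy1, and accumulates plaques. Dose, route and length of treatment, sex, and whether the 2 libraries of a group came from separate animals are details the sources used here do not give, so every p-value measures the spread between libraries alone.

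Granule neurons numbered 1198 and 771 in the Aβ3FTnAu-treated 5×FAD libraries, 1301 and 2072 in the PBS-treated 5×FAD libraries, and 2245 and 1162 in the wild-type libraries. Their median depth lay between 3981 and 5978 UMIs per barcode, and their summed counts between 6015960 and 19175558 UMIs per library. Members without any mitochondrial UMI made up 60.8% and 58.5% in treated 5×FAD, 21.2% and 19.0% in PBS-treated 5×FAD, and 44.8% and 29.1% in wild type. The treated libraries were thus the highest of the 6 in this measure and the PBS-treated 5×FAD libraries the lowest. Mitochondrial UMIs were 0.022% and 0.016% of granule UMIs in treated 5×FAD, 0.069% and 0.104% in PBS-treated 5×FAD, and 0.031% and 0.078% in wild type. Whether the suspensions held whole cells or nuclei was not tested. The wild-type libraries differed most from each other, with a chi-square of 24.3 for each degree of freedom over their summed granule counts, against 3.99 between the treated and 4.96 between the PBS-treated 5×FAD libraries. Across all pairs of libraries, 8 granule barcodes were shared.

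The panel genes show what the rule selected and carry no test. Glis3, which encodes a zinc-finger transcription factor, had at least 1 UMI in 95.8% to 97.4% of granule neurons per library, against 4.87% to 11.5% of CA3 neurons, whose median depth was greater at 8208 to 10743 UMIs. Prox1 was detected in 69.5% to 76.8% of granule neurons and in 3.70% to 9.55% of CA3 neurons. The share with a UMI was 34.5% to 48.1% for Plk5, 14.5% to 29.6% for Stra6, the retinol transporter, and 15.6% to 23.5% for Dsp, which encodes the junction protein desmoplakin. The median panel sum was 5 to 7 UMIs per library. Members with a sum of exactly 3 numbered 104 to 450 per library, and 115 to 537 barcodes lay just outside with a sum of 2, apart from 2 to 34 with a sum of 3 or more that tied with another panel.

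The label was set beside 16 granule cell genes that the rule did not use. This list was chosen with earlier results of these data known, so it is no independent check. In every library, 15 of the 16 stood higher in granule than in CA1 neurons, and all 16 stood higher in granule than in CA3 and CA2 neurons, in CPM, the summed UMIs of a gene scaled to a library total of 1000000. Dock10, a guanine nucleotide exchange factor, had a median of 703 CPM over the 6 libraries in granule neurons (range 653 to 820.5), against 59.4 CPM in CA1 neurons (28.6 to 101) and 61.4 CPM in CA3 neurons (45.6 to 104). Rfx3, a transcription factor of ciliated and other cells, stood at 1673 CPM in granule neurons, against 245 CPM in CA1 and 194 CPM in CA3. The calcium-permeable channel gene Trpc6 had 391 CPM in granule neurons, against 42.4 CPM in CA1 and 24.5 CPM in CA3. None of these differences between classes was tested, since the same barcodes were sorted into classes by their counts.

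The mossy fibre and perforant path adhesion list as a whole was not higher in granule neurons, since its 22 genes summed to less than in CA3 neurons in 6 of 6 libraries. Among single genes of granule cell connections, Lrrtm4, a postsynaptic adhesion protein that binds heparan sulphate proteoglycans at perforant path synapses, had 7999 CPM in granule neurons (7070.4 to 8723), against 2707 CPM in CA1 and 1356 CPM in CA3. C1ql3 and C1ql2 encode secreted C1q-like proteins, which mossy fibres release to organise kainate receptors at their synapses on CA3 neurons. C1ql3 had 188 CPM in granule neurons (88.6 to 228), against 62.4 CPM in CA1 and 19.7 CPM in CA3. C1ql2 had 20.4 CPM in granule neurons, against 3.30 CPM in CA1 and 3.84 CPM in CA3, and its granule range of 13.2 to 75.8 CPM was wide. Calb1, which encodes the calcium buffer calbindin, had 81.1 CPM in granule neurons, against 32.3 CPM in CA1 and 5.37 CPM in CA3.

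Gabrd, the δ subunit of extrasynaptic GABA-A receptors that carry tonic inhibition in granule cells, had 31.2 CPM in granule neurons, against 10.3 CPM in CA1 and 2.32 CPM in CA3. Synpr, which encodes the mossy fibre vesicle protein synaptoporin, had 697 CPM in granule neurons, against 29.8 CPM in CA1 and 197 CPM in CA3. Pdyn, the precursor of dynorphin peptides of mossy fibres, had 3.31 CPM in granule neurons, against 0.229 CPM in CA3. The neurexin gene Nrxn3 ran the other way, with 2110.4 CPM in granule neurons, against 5762 CPM in CA1 and 7283 CPM in CA3. The exception among the 16 was Bcl11b, a zinc-finger transcription factor, which had 246 CPM in granule and 252 CPM in CA1 neurons and was higher in granule neurons in 3 of 6 libraries.

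**Figure D1:**
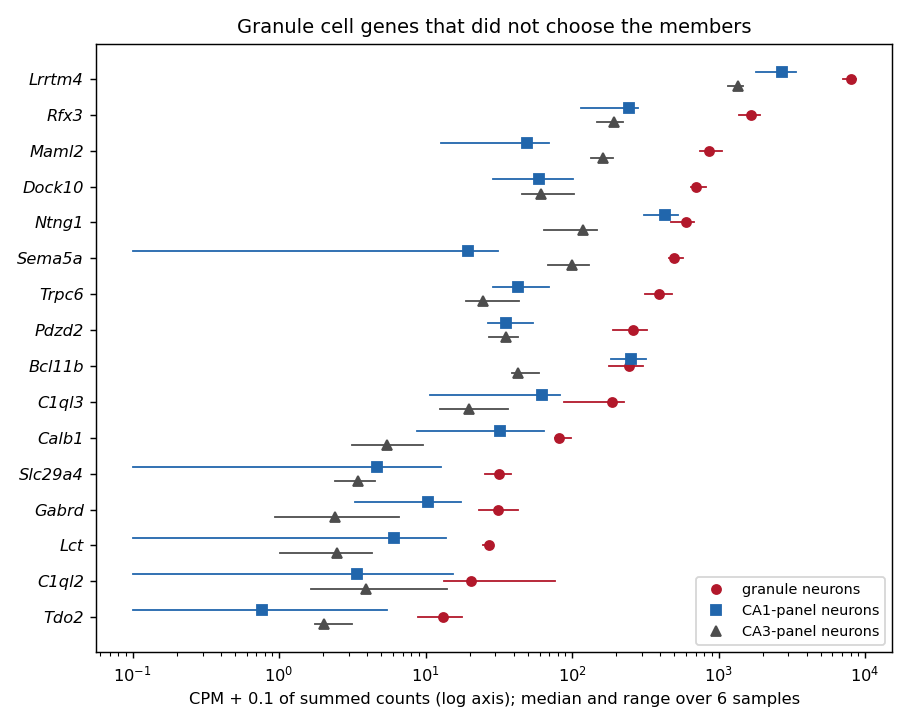
Levels of 16 granule cell genes outside the selection rule in granule, CA1 and CA3 neurons, as CPM of summed UMIs plus 0.1 on a log axis, with symbols at the median and lines over the range of 6 libraries. Granule values of Dock10 lie between 653 and 820.5 CPM and those of CA1 neurons between 28.6 and 101 CPM, whereas the Bcl11b ranges of both classes overlap.

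Transcripts of young granule cells were low among the members. Dcx, the microtubule protein doublecortin of newborn and migrating neurons, stood at 19.4 CPM in granule neurons, below its 33.8 CPM in CA1 and 38.5 CPM in CA3 neurons. Eomes, a transcription factor of intermediate progenitors, was at 0 CPM in the median library, with a highest value of 0.155 CPM. Calb2, which marks young postmitotic granule cells, had 0.460 CPM. Among immediate early genes, Fos had 0.285 CPM (0.0854 to 0.689), Arc 1.38 CPM and Npas4 1.58 CPM, and the list of 18 summed to between 176 and 245 CPM. Gad1, an enzyme of GABA synthesis that mature granule cells are known to express weakly, had 21.2 CPM in granule neurons (16.1 to 25.8). The rule capped Gad1 and Gad2 together at 1 UMI per barcode, so this level was bounded by the choice of members.

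A minority of members did not carry the leading panel gene. No Glis3 UMI was found in 286 members (3.27%), 32 to 73 per library, which entered through Prox1, Plk5, Stra6 or Dsp. These held Erbb4, a neuregulin receptor known from interneurons, at a median of 1554 CPM (543 to 3325), against 115 CPM (73.0 to 146) in members with Glis3. Kcnc2, a fast potassium channel subunit, had 325 CPM without Glis3 and 71.6 CPM with it, and the kainate receptor gene Grik1 had 207 and 24.6 CPM. Granule genes outside the rule differed less, with Dock10 at 619.8 CPM without Glis3 and 707 CPM with it, and Rfx3 at 1237 and 1684 CPM. Erbb4 was also among the genes that varied most between members when each barcode was thinned to 2000 UMIs, with a median variance-to-mean ratio of 10.9 over libraries, against 1.03 over 5863 genes. Each comparison below was repeated without the members that lacked Glis3 or held a Gad UMI.

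The granule share of panel-assigned excitatory barcodes was 61.7% (95% Clopper-Pearson interval 59.5 to 63.9) and 59.0% (56.3 to 61.7) in treated 5×FAD, 75.5% (73.4 to 77.5) and 76.2% (74.5 to 77.8) in PBS-treated 5×FAD, and 63.7% (62.1 to 65.3) and 69.0% (66.7 to 71.2) in wild type. Both PBS-treated 5×FAD libraries were the highest of the 6 in this share, and the treated libraries the lowest. Excitatory barcodes that no panel assigned are left out of it. All excitatory barcodes numbered 5549 and 4406 in treated 5×FAD, 3618 and 6081 in PBS-treated 5×FAD, and 10952 and 4579 in wild type. With these as denominator PBS-treated 5×FAD stayed the highest. Treated replicate 1 then lay above wild-type replicate 1, so treated and wild-type libraries overlapped. The mean of the panel-assigned share was 60.4% ± 1.88 in treated against 75.8% ± 0.473 in PBS-treated 5×FAD (SD, n = 2 each), a difference of -15.5 points. PBS-treated 5×FAD stood 9.51 points above wild type (66.3% ± 3.72), and treated 5×FAD differed from wild type by -5.97 points. Each exact two-sided permutation test gave p = 0.333, the smallest value that 2 against 2 libraries allow, so none of these differences could pass. The panels assigned 595 and 403 CA3 neurons in treated 5×FAD, 314 and 495 in PBS-treated 5×FAD, and 853 and 448 in wild type. The part of dissection and capture in these shares was not tested, and intervals cover counting error only.

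**Figure D2:**
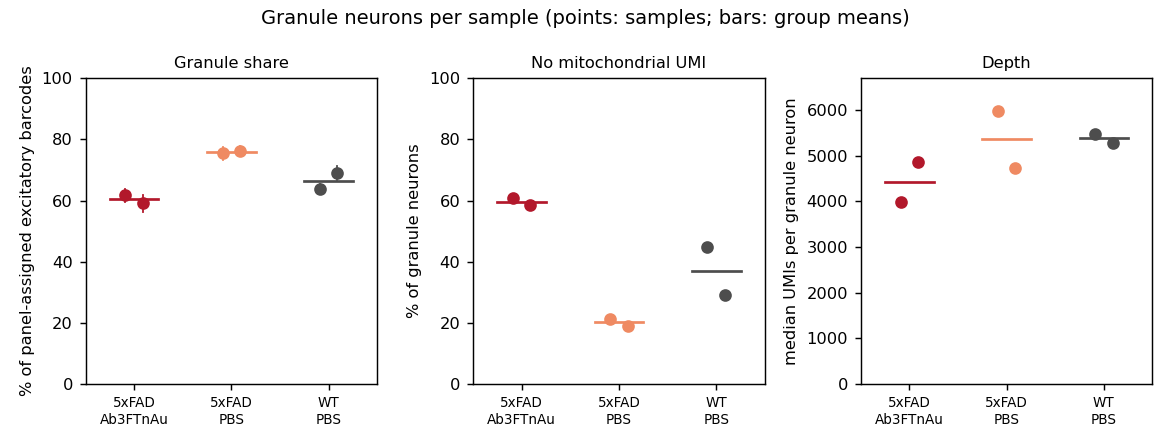
Per library and group, granule neurons as a percent of panel-assigned excitatory barcodes with 95% Clopper-Pearson intervals (left), granule neurons without a mitochondrial UMI in percent (middle) and median UMIs per granule neuron (right), with bars at group means. The PBS-treated 5×FAD shares sit at 75.5% and 76.2%, and those of the other 4 libraries between 59.0% and 69.0%.

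Aβ3FTnAu-treated 5×FAD granule neurons were compared with PBS-treated 5×FAD granule neurons to ask what the treatment did to this cell type. With counts summed per library, edgeR's quasi-likelihood test called 0 of 16514 genes at an adjusted p below 0.05 (0%), while 2844 genes (17.2%) had an unadjusted p below 0.05. DESeq2 on the same sums called 357 genes, 200 higher and 157 lower, and edgeR fitted to the 5×FAD groups alone called 2356. Left out of the shared fit 1 at a time, wild-type replicate 1 gave 2342 calls and wild-type replicate 2 gave 2323. Among genes of at least 20 CPM, those of smallest p were a C1q-like mossy fibre protein, a Shisa family protein and an uncharacterised antisense transcript. Levels of single genes in granule neurons below are TMM-scaled CPM of the summed counts. Sums of gene lists, and levels in other classes, are CPM without TMM factors. No gene named in this comparison passed the edgeR test.

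C1ql3, on chromosome 2 (13003457 to 13011806, minus strand, GRCm38 by GENCODE vM21), had 94.7 and 88.4 CPM in treated 5×FAD, 199.6 and 223 CPM in PBS-treated 5×FAD, and 206 and 183 CPM in wild type. The treated libraries were lower than all the others, and the 4 others overlapped. Of all genes, 30.7% had both treated libraries below both PBS-treated 5×FAD libraries. The log2 difference between treated and PBS-treated 5×FAD was -1.21 ± 0.11 (SE, edgeR adjusted p = 0.109). It stayed between -1.29 and -1.12 in 18 alternative analyses and passed the threshold in 8 of them, among them members without a mitochondrial UMI (-1.25, adjusted p = 0.0232 by edgeR) and members with one (-1.27, edgeR adjusted p = 0.0469). CA1 neurons showed C1ql3 at 27.6 CPM in treated and 74.8 CPM in PBS-treated 5×FAD, and the difference between the classes in this contrast was 0.12 ± 0.38 on the log2 scale (edgeR adjusted p = 0.992). Its mossy fibre partner C1ql2 had 13.3 and 13.8 CPM in treated 5×FAD, 21.4 and 38.8 CPM in PBS-treated 5×FAD, and 75.3 and 20.1 CPM in wild type, with 1 wild-type library far above the other (log2 difference -1.16 ± 0.59, edgeR adjusted p = 0.359 for treated against PBS-treated 5×FAD).

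Shisa4, a member of a family that includes AMPA receptor auxiliary proteins, is on chromosome 1 (135371057 to 135375237, minus strand). It had 23.3 and 19.6 CPM in treated 5×FAD, 60.4 and 58.3 CPM in PBS-treated 5×FAD, and 68.9 and 61.1 CPM in wild type, a log2 difference of -1.47 ± 0.14 (edgeR adjusted p = 0.109) between the 5×FAD groups. The annotated antisense gene 4930473D10Rik stood higher in treated 5×FAD, with 46.2 and 58.7 CPM, against 14.5 and 13.7 CPM in PBS-treated 5×FAD, and 13.1 and 16.7 CPM in wild type (1.90 ± 0.19, edgeR adjusted p = 0.109). The sources used here do not say whether its counting used strand, so reads of the gene opposite cannot be told apart from it. Srrm2, a splicing-associated SR matrix protein, had 618 and 607 CPM in treated 5×FAD, 393 and 399 CPM in PBS-treated 5×FAD, and 437 and 428 CPM in wild type (0.63 ± 0.08). Lower in both treated libraries than in the other 4 were Prelid3a, a mitochondrial lipid transfer protein homologue (-0.96 ± 0.11), the spliceosome subunit Snrpf (-1.62 ± 0.19), the histone gene H3f3b (-1.24 ± 0.15), Morn2 (-1.65 ± 0.21), Gm12027 (-1.16 ± 0.15) and Gm9856 (-1.26 ± 0.17). Both treated libraries lay below both PBS-treated 5×FAD libraries for 30.7% of all genes, and above them for 28.8%.

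**Figure D3:**
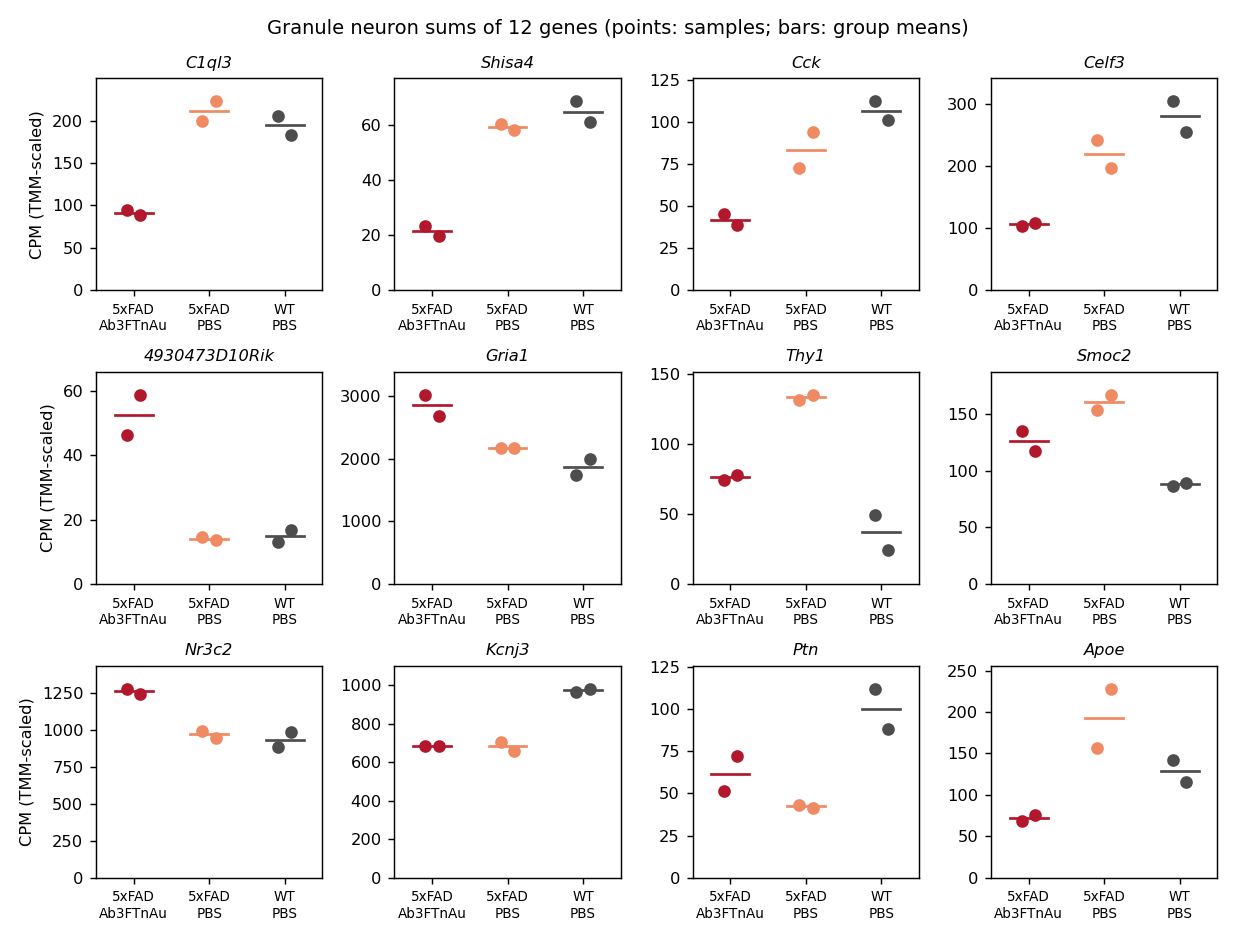
TMM-scaled CPM of 12 named genes in granule neurons, with points for libraries, bars at group means, and groups in the order treated 5×FAD, PBS-treated 5×FAD and wild type. For C1ql3 the treated libraries sit at 94.7 and 88.4 CPM and the other 4 between 183 and 223 CPM, whereas for Thy1 the PBS-treated 5×FAD libraries are the highest at 131 and 135 CPM.

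Genes of protein synthesis and respiration were lower as groups in treated granule neurons. Of 24 cytosolic ribosomal protein genes tested, 20 were lower and 0 higher at an unadjusted p below 0.05, with a median log2 difference of -1.01. Over all genes 8.36% were lower and 8.87% higher by that measure, and the median difference was -0.01. Summed over the list, ribosomal transcripts stood at 479 and 425 CPM in treated 5×FAD, 663 and 874 CPM in PBS-treated 5×FAD, and 812 and 732 CPM in wild type, so the treated libraries were the lowest. Rpl41 of the large subunit had 15.6 and 13.4 CPM in treated 5×FAD, 30.9 and 39.7 CPM in PBS-treated 5×FAD, and 48.0 and 34.5 CPM in wild type (-1.28 ± 0.22 against PBS-treated 5×FAD).

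Of 24 nuclear genes of the respiratory chain, 12 were lower and 0 higher at an unadjusted p below 0.05 (median -0.52), with Atp5a1 of the ATP synthase at -0.74 ± 0.13 and Cox4i1 of cytochrome c oxidase at -0.82 ± 0.15. By the same measure 8.36% of all genes were lower and 8.87% higher. All 13 mitochondrially encoded genes were lower, 12 of them at an unadjusted p below 0.05 (median -2.17). Their sum was 222 and 164 CPM in treated 5×FAD, 694 and 1036 CPM in PBS-treated 5×FAD, and 307 and 784 CPM in wild type, where 1 library lay between the treated and the PBS-treated 5×FAD libraries and the other within the range of the PBS-treated ones.

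The ribosomal difference stood beside the difference in mitochondrial UMIs and was measured on either side of it. In members without a mitochondrial UMI the ribosomal sum was 470.5 and 423 CPM in treated 5×FAD, 614 and 856 CPM in PBS-treated 5×FAD, and 779 and 701 CPM in wild type. In members with at least 1 such UMI it was 487 and 427 CPM in treated 5×FAD, 673 and 877 CPM in PBS-treated 5×FAD, and 827 and 742 CPM in wild type. CA3 neurons had 302 and 291 CPM in treated 5×FAD, 471 and 560.3 CPM in PBS-treated 5×FAD, and 575 and 486 CPM in wild type. The treated libraries were the lowest in all 3 sets, and the part of RNA handling in these sums was not tested.

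**Figure D4:**
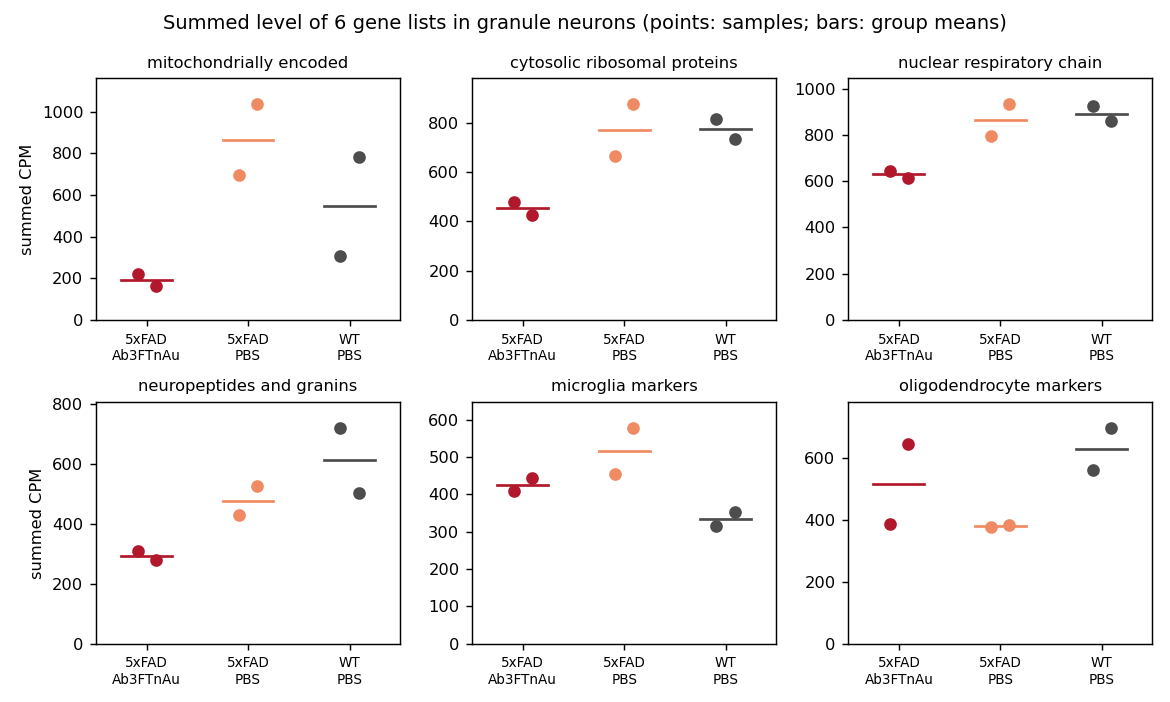
Summed CPM of 6 gene lists in granule neurons, with points for libraries, bars at group means, and groups in the order treated 5×FAD, PBS-treated 5×FAD and wild type. Ribosomal sums are 479 and 425 CPM in treated 5×FAD and between 663 and 874 CPM elsewhere, whereas the mitochondrial sum of 1 wild-type library, 307 CPM, lies between those of the treated and the PBS-treated 5×FAD libraries.

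Secreted peptides and secretory granule proteins stood lower in treated granule neurons. In the list of neuropeptides and granins, 4 of 14 genes tested were lower and 0 higher at an unadjusted p below 0.05 (median -0.51). Over all genes 8.36% were lower and 8.87% higher. The sum of this list was lowest in treated libraries in CA3 neurons too. It was 336 and 336 CPM in treated 5×FAD, 487 and 654 CPM in PBS-treated 5×FAD, and 881 and 491 CPM in wild type there. Cck, the cholecystokinin precursor, had 45.1 and 38.8 CPM in treated 5×FAD, 72.8 and 93.9 CPM in PBS-treated 5×FAD, and 112 and 101 CPM in wild type (-0.99 ± 0.16 against PBS-treated 5×FAD, edgeR adjusted p = 0.130). The secretogranin gene Scg2 had 28.9 and 20.4 CPM in treated 5×FAD, 51.6 and 68.3 CPM in PBS-treated 5×FAD, and 97.4 and 58.6 CPM in wild type (-1.28 ± 0.29). Pcsk1n, an inhibitor of prohormone convertase, was lower by a log2 difference of -1.21 ± 0.32, and Nrn1, an activity-regulated neurite growth protein, of -0.54 ± 0.12. Penk and Pdyn, the enkephalin and dynorphin precursors, were scarce: Penk had 2.50 and 2.65 CPM in treated 5×FAD, 3.38 and 3.69 CPM in PBS-treated 5×FAD, and 8.18 and 4.23 CPM in wild type.

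Activity-related transcripts gave no common direction. Of 15 immediate early genes tested, 3 were higher and 2 lower at an unadjusted p below 0.05 (median 0.33), while Fos itself was too low to test. By the same measure 8.87% of all genes were higher and 8.36% lower. Jun had 17.2 and 16.1 CPM in treated 5×FAD, 33.1 and 31.5 CPM in PBS-treated 5×FAD, and 30.0 and 31.5 CPM in wild type (-0.96 ± 0.15), and Btg2 was likewise lower (-0.84 ± 0.18). Nr4a1, an orphan nuclear receptor, stood higher, with 7.19 and 11.3 CPM in treated and 5.06 and 3.85 CPM in PBS-treated 5×FAD (1.05 ± 0.31). Npas4, a neuron-specific activity factor, had 2.19 and 4.64 CPM in treated and 1.89 and 1.17 CPM in PBS-treated 5×FAD (1.16 ± 0.49, edgeR adjusted p = 0.287). Arc had 0.781 and 1.82 CPM in treated and 1.09 and 1.01 CPM in PBS-treated 5×FAD, and Bdnf, the neurotrophin that mossy fibres contain in quantity, had 52.2 and 48.6 CPM in treated and 61.8 and 53.9 CPM in PBS-treated 5×FAD (-0.20 ± 0.22).

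Receptor, channel and synaptic genes of small p lay on both sides. Gria1, an AMPA receptor subunit, had 3024 and 2691 CPM in treated 5×FAD, 2176 and 2168 CPM in PBS-treated 5×FAD, and 1746 and 2005 CPM in wild type (0.40 ± 0.10, edgeR adjusted p = 0.161). Kcnn2, a calcium-activated potassium channel, had 308 and 362 CPM in treated 5×FAD, 199.8 and 145 CPM in PBS-treated 5×FAD, and 178 and 208 CPM in wild type (0.96 ± 0.17). Nrxn3 stood higher by 0.72 ± 0.14, Itpr1, an endoplasmic reticulum calcium channel, by 0.49 ± 0.09, and the BDNF receptor Ntrk2 by 0.41 ± 0.10. The adhesion gene Cdh9 was lower (-0.51 ± 0.12).

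As lists, AMPA, kainate and NMDA receptors had 1 higher and 1 lower of 19 at an unadjusted p below 0.05, metabotropic glutamate receptors and scaffolds 1 and 0 of 19, GABA-A receptors 1 and 3 of 17, sodium and calcium channels 1 and 0 of 18, potassium and HCN channels 2 and 1 of 21, and vesicle proteins 2 and 5 of 26. By the same measure 8.87% of all genes were higher and 8.36% lower. The 16 granule genes outside the rule had 1 lower, C1ql3, and 0 higher. Lrrtm4 differed by -0.11 ± 0.10 and Calb1 by 0.00 ± 0.11.

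Nr3c2, the mineralocorticoid receptor and a gene that granule cells express strongly, had 1279 and 1244 CPM in treated 5×FAD, 993 and 948 CPM in PBS-treated 5×FAD, and 882 and 983 CPM in wild type. Both treated libraries lay above the other 4 (0.38 ± 0.09, edgeR adjusted p = 0.160). For 28.8% of all genes they lay above both PBS-treated 5×FAD libraries. In the corticosteroid response list 3 of 10 genes were higher and 0 lower at an unadjusted p below 0.05 (median 0.30). Over all genes 8.87% were higher and 8.36% lower. In CA3 neurons the list sum was also highest in treated 5×FAD, at 1450 and 1467 CPM. It was 1277 and 1302 CPM in PBS-treated 5×FAD and 1149 and 1273 CPM in wild type there. Besides Nr3c2, the higher genes were Tsc22d3, a glucocorticoid-induced leucine zipper protein (1.10 ± 0.44), and the kinase gene Sgk1 (0.34 ± 0.13). Tsc22d3 was scarce and uneven, with 3.12 and 7.30 CPM in treated and 2.38 and 2.43 CPM in PBS-treated 5×FAD, and its difference turned to -0.055 in members without a mitochondrial UMI. Sterol synthesis genes gave 1 higher and 1 lower of 22 (median 0.06).

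Markers of other cell types were measured in the same sums, since a barcode can also hold free RNA of the suspension. Of 12 microglia markers, 1 was higher and 7 lower at an unadjusted p below 0.05 in treated against PBS-treated 5×FAD (median -0.86), where 8.87% of all genes were higher and 8.36% lower. Their summed level was 408 and 444 CPM in treated 5×FAD, 454 and 578 CPM in PBS-treated 5×FAD, and 317 and 354 CPM in wild type. In CA3 neurons this sum ran the other way between the 5×FAD groups, with 296 and 293 CPM in treated and 229.8 and 253 CPM in PBS-treated 5×FAD. Apoe, a lipid carrier made chiefly by glia, had 68.1 and 75.8 CPM in treated 5×FAD, 157 and 228 CPM in PBS-treated 5×FAD, and 143 and 115 CPM in wild type (-1.42 ± 0.20, edgeR adjusted p = 0.130). Oligodendrocyte markers summed to 387 and 644 CPM in treated 5×FAD, 378 and 382 CPM in PBS-treated 5×FAD, and 562 and 696 CPM in wild type, with 2 of 10 higher and 0 lower. Oligodendrocyte precursor markers summed to 107 and 106 CPM in treated 5×FAD, 66.7 and 51.8 CPM in PBS-treated 5×FAD, and 106 and 100.1 CPM in wild type, with 3 of 8 higher and 0 lower between the 5×FAD groups (median 0.54). Astrocyte markers summed to 837 and 797 CPM in treated 5×FAD, 811 and 838 CPM in PBS-treated 5×FAD, and 816 and 839.8 CPM in wild type, with 0 of 9 higher and 2 lower between the 5×FAD groups (median -0.26). No marker of these lists was at 0 in all 6 libraries, and their part in the differences above was not tested.

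PBS-treated 5×FAD granule neurons were compared with wild-type granule neurons to ask what the transgenic disease model did to this cell type. Fewer genes had a small p here than between the 5×FAD groups. edgeR's quasi-likelihood test called 0 of 16514 genes (0%), with 1395 genes (8.45%) at an unadjusted p below 0.05, and DESeq2 called 42 genes, 28 higher and 14 lower. The wild-type libraries stood apart from each other, and leaving one out moved these counts: without wild-type replicate 1 edgeR called 5 genes, and without wild-type replicate 2 it called 3495. Both fits left a lone wild-type library that was assumed to vary like the other groups.

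Thy1, the cell surface glycoprotein gene whose promoter drives the human transgenes, is on chromosome 9 (44043384 to 44048579, plus strand). It had 74.5 and 78.1 CPM in treated 5×FAD, 131 and 135 CPM in PBS-treated 5×FAD, and 49.4 and 24.1 CPM in wild type. The PBS-treated 5×FAD libraries were the highest and the wild-type libraries the lowest, with the treated ones between them. The sources used here do not say how reads of the transgenes were assigned, so any that fell on Thy1 cannot be told apart from those of the mouse gene. The log2 difference between PBS-treated 5×FAD and wild type was 1.83 ± 0.29 (edgeR adjusted p = 0.307), and between treated and PBS-treated 5×FAD -0.80 ± 0.28 (edgeR adjusted p = 0.232), comparisons that share the PBS-treated libraries. Over 18 alternatives the difference from wild type lay between 1.43 and 2.48 and passed the threshold in 3, among them DESeq2 (adjusted p = 5.68e-06).

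App, the amyloid precursor gene, had 396 and 425 CPM in treated 5×FAD, 429 and 436 CPM in PBS-treated 5×FAD, and 391 and 365 CPM in wild type (0.19 ± 0.09 for PBS-treated 5×FAD against wild type, edgeR adjusted p = 0.586). The same limit on transgene reads holds for App. Of 20 genes in the list of transgene promoter and amyloid processing, 3 were higher and 1 lower at an unadjusted p below 0.05 (median -0.20), against 3.97% higher and 4.48% lower over all genes.

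Smoc2, a secreted matricellular calcium-binding protein, had the smallest p among genes of at least 20 CPM. Its level was 135 and 117 CPM in treated 5×FAD, 154 and 167 CPM in PBS-treated 5×FAD, and 86.6 and 89.4 CPM in wild type (0.87 ± 0.11, edgeR adjusted p = 0.285). Kcnj3, a G protein-gated inward rectifier, had 685 and 684 CPM in treated 5×FAD, 706 and 659 CPM in PBS-treated 5×FAD, and 966 and 982 CPM in wild type (-0.51 ± 0.08). All 4 libraries of 5×FAD mice lay below both wild-type libraries for Kcnj3. The PBS-treated 5×FAD libraries did so for 19.9% of all genes. Ptn, the growth factor pleiotrophin, had 51.2 and 72.0 CPM in treated 5×FAD, 43.3 and 41.4 CPM in PBS-treated 5×FAD, and 112 and 88.0 CPM in wild type (-1.24 ± 0.19).

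Other genes of small p were Man1c1, a mannosidase of glycoprotein trimming (0.82 ± 0.13), Mlip (-0.79 ± 0.13), Fam13a (-0.75 ± 0.13) and 3 transcripts that are abundant in glia, namely Ptgds (-1.19 ± 0.20), Gatm (-1.34 ± 0.23) and Aspa (-1.53 ± 0.27). Granule genes leaned neither way, with 2 of the 16 outside the rule higher and 2 lower (median 0.06). That count is at an unadjusted p below 0.05, where 3.97% of all genes were higher and 4.48% lower. Bcl11b was higher (0.51 ± 0.15), and Dock10 was lower (-0.28 ± 0.09), as was Calb1, with 82.9 and 74.8 CPM in PBS-treated 5×FAD and 94.6 and 101 CPM in wild type (-0.31 ± 0.11, edgeR adjusted p = 0.584). Grik3, a presynaptic kainate receptor subunit of mossy fibres, had 59.8 and 68.6 CPM in PBS-treated 5×FAD and 38.5 and 43.5 CPM in wild type (0.65 ± 0.13), and the vesicle protein gene Sv2c differed by 0.70 ± 0.15.

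Microglial and oligodendroglial transcripts had different values in the 2 groups. Of 12 microglia markers, 7 were higher and 0 lower at an unadjusted p below 0.05 (median 0.63), where 3.97% of all genes were higher and 4.48% lower. Cst7, a cystatin of plaque-associated microglia, had 3.44 and 4.48 CPM in treated 5×FAD, 5.66 and 6.62 CPM in PBS-treated 5×FAD, and 0.932 and 0.925 CPM in wild type (2.71 ± 0.33, edgeR adjusted p = 0.285). Tyrobp, a signalling adaptor of myeloid cells, had 9.22 and 5.47 CPM in treated 5×FAD, 15.1 and 19.9 CPM in PBS-treated 5×FAD, and 3.68 and 3.44 CPM in wild type (2.29 ± 0.30). Of 10 oligodendrocyte markers, 7 were lower and 0 higher (median -0.86), with the myelin gene Mog at 20.7 and 19.8 CPM in PBS-treated 5×FAD and 52.4 and 51.2 CPM in wild type (-1.36 ± 0.29). Of 8 precursor markers, 6 were lower and 0 higher (median -1.11), and of 9 astrocyte markers tested, 3 were lower and 0 higher (median -0.31). In CA3 neurons the microglia sum was 296 and 293 CPM in treated 5×FAD, 229.8 and 253 CPM in PBS-treated 5×FAD, and 159.6 and 207 CPM in wild type, so 5×FAD libraries of both treatments were above wild type there too, and the part of free RNA was not tested.

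Ribosomal genes had 0 higher and 1 lower of 24 in PBS-treated 5×FAD against wild type (median -0.12), and nuclear respiratory genes 0 and 1 of 24 (median -0.18). These counts and those that follow are at an unadjusted p below 0.05, where 3.97% of all genes were higher and 4.48% lower. Neuropeptides and granins had 0 higher and 4 lower of 14 (median -0.49), with Pcsk1n at 57.1 and 52.1 CPM in PBS-treated 5×FAD and 119 and 57.5 CPM in wild type, where the difference rested on 1 wild-type library. Immature granule cell genes had 0 higher and 2 lower of 13 (median -0.40). Stmn1, a microtubule-destabilising protein of growing neurites, had 17.3 and 18.2 CPM in treated 5×FAD, 26.4 and 25.8 CPM in PBS-treated 5×FAD, and 46.4 and 40.6 CPM in wild type (-0.74 ± 0.14 for PBS-treated 5×FAD against wild type). Immediate early genes had 0 higher and 2 lower of 15, among them Arc, with 1.09 and 1.01 CPM in PBS-treated 5×FAD and 2.90 and 1.72 CPM in wild type (-1.19 ± 0.48).

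Treated 5×FAD granule neurons were last compared with wild type, which asks how far treated animals were from healthy ones. This contrast shares its libraries with both others and is no independent support for either. edgeR called 0 of 16514 genes (0%), but 4539 genes (27.5%) had an unadjusted p below 0.05 and the smallest adjusted p was 0.0509. DESeq2 called 1382 genes, 838 higher and 544 lower, edgeR without wild-type replicate 1 called 1148, and without wild-type replicate 2 it called 5706.

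Celf3, a neuronal RNA-binding protein, had 104 and 108 CPM in treated 5×FAD, 243 and 197 CPM in PBS-treated 5×FAD, and 305 and 256 CPM in wild type (-1.40 ± 0.14 against wild type). The splicing factor Rbm39 had 437 and 439 CPM in treated 5×FAD, 689 and 655 CPM in PBS-treated 5×FAD, and 760.5 and 733 CPM in wild type (-0.77 ± 0.08). Gm48003 stood higher, with 48.9 and 53.2 CPM in treated 5×FAD, 31.3 and 27.7 CPM in PBS-treated 5×FAD, and 18.1 and 21.7 CPM in wild type (1.37 ± 0.16). Each of these, together with Shisa4 (-1.60 ± 0.14), Prelid3a (-1.09 ± 0.11), Morn2 (-2.08 ± 0.21), C1ql3 (-1.09 ± 0.11), 4930473D10Rik (1.83 ± 0.19), Stmn1 (-1.29 ± 0.15) and Cck (-1.35 ± 0.16), had an edgeR adjusted p of 0.0509. Treated libraries did not overlap wild-type libraries for any of these 10 genes, which was also so, in the higher direction, for 27.2% and, in the lower direction, for 28.9% of all genes.

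Neuropeptides and granins had 0 higher and 11 lower of 14 at an unadjusted p below 0.05 against wild type (median -1.14), where 13.9% of all genes were higher and 13.6% lower. Their summed level was 308 and 277 CPM in treated 5×FAD, 429 and 525 CPM in PBS-treated 5×FAD, and 719 and 503 CPM in wild type. Ribosomal genes had 0 higher and 20 lower of 24 (median -1.18), and nuclear respiratory genes 0 and 17 of 24 (median -0.62). Iron-handling genes and metallothioneins had 2 higher and 7 lower of 15 (median -0.48). Fth1, the ferritin heavy chain, had 51.1 and 58.4 CPM in treated 5×FAD, 65.9 and 115 CPM in PBS-treated 5×FAD, and 144 and 132 CPM in wild type (-1.33 ± 0.25, edgeR adjusted p = 0.0589). The metallothionein gene Mt1 had 3.91 and 2.49 CPM in treated 5×FAD and 10.2 and 7.80 CPM in wild type (-1.50 ± 0.33). Between the 5×FAD groups the iron and metallothionein list had 1 higher and 4 lower of 15 (median -0.27). There 8.87% of all genes were higher and 8.36% lower. Fth1 differed by -0.73 in that comparison (edgeR adjusted p = 0.226) and Mt1 by -1.30 (edgeR adjusted p = 0.162).

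Receptor and channel genes were on both sides in this contrast, with 4 higher and 4 lower of 19 AMPA, kainate and NMDA receptor genes. That count is at an unadjusted p below 0.05, where 13.9% of all genes were higher and 13.6% lower. Gria1 stood above wild type (0.61 ± 0.10) and Gria2 below it (-0.30 ± 0.08), with Gria2 at 2239 and 2102 CPM in treated 5×FAD, 2411 and 2358 CPM in PBS-treated 5×FAD, and 2708 and 2645 CPM in wild type. The potassium channel Kcnj3 was lower (-0.51 ± 0.08), while Kcnj6, another G protein-gated channel, was higher (0.50 ± 0.11). Gphn, which encodes the inhibitory synapse scaffold gephyrin, had 569 and 611 CPM in treated 5×FAD, 723 and 677 CPM in PBS-treated 5×FAD, and 871 and 779 CPM in wild type (-0.48 ± 0.10). Gabrd had 26.7 and 23.0 CPM in treated 5×FAD, 32.4 and 32.7 CPM in PBS-treated 5×FAD, and 42.6 and 31.2 CPM in wild type (-0.58 ± 0.19, edgeR adjusted p = 0.108).

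**Figure D5:**
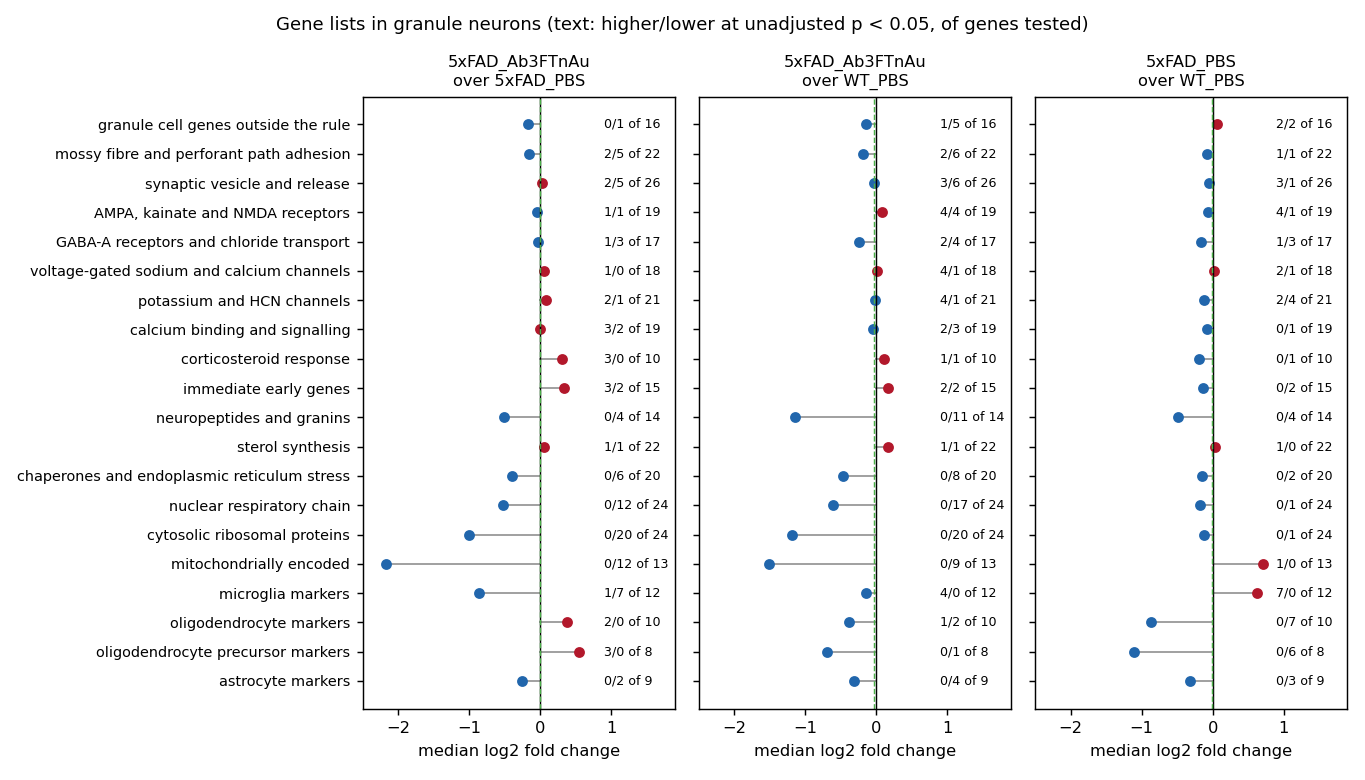
Median log2 difference of 20 gene lists in granule neurons, 1 panel per comparison, with a dashed line at the median of all genes tested and the numbers of genes higher and lower at an unadjusted p below 0.05. Ribosomal genes lie at -1.01 for treated against PBS-treated 5×FAD, -1.18 for treated 5×FAD against wild type and -0.12 for PBS-treated 5×FAD against wild type.

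Whether the groups differed by another amount in granule than in CA1 neurons was tested within libraries, as a class by group interaction over 15898 genes. Panel and filter genes, which sorted the barcodes, were not taken out of the counts below. edgeR called 112 genes (0.704%) for treated against PBS-treated 5×FAD, 109 with a higher difference in granule neurons and 3 with a lower one. It called 40 genes (0.252%) for PBS-treated 5×FAD against wild type, 4 higher and 36 lower, and 31 genes (0.195%) for treated 5×FAD against wild type, 30 higher and 1 lower. At an unadjusted p below 0.05 the shares were 7.05%, 5.38% and 5.4%. DESeq2 called 10, 1 and 0 genes in the same order, and with CA3 in place of CA1 neurons edgeR called 14, 6 and 0. Without treated replicate 2 the first count was 29 and the last 10, and without PBS-treated 5×FAD replicate 2 the counts were 32, 4 and 19. Leaving out wild-type replicate 1 gave 11 calls for PBS-treated 5×FAD against wild type and 63 for treated 5×FAD against wild type, and leaving out wild-type replicate 2 gave 100 for PBS-treated 5×FAD against wild type. CA1 sums rested on 25 and 35 neurons in treated 5×FAD, 71 and 99 in PBS-treated 5×FAD, and 331 and 40 in wild type.

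Trps1, a GATA-type zinc-finger repressor, averaged 154 CPM in treated 5×FAD granule neurons, 104 CPM in PBS-treated 5×FAD granule neurons and 169 CPM in wild-type granule neurons. CA1 neurons ran in the opposite direction, with 43.6 CPM in treated 5×FAD, 219 CPM in PBS-treated 5×FAD and 101 CPM in wild type. The interaction was 3.15 on the log2 scale for treated against PBS-treated 5×FAD and -1.75 for PBS-treated 5×FAD against wild type. Spock1, a testican proteoglycan, likewise averaged 111 CPM in treated and 59.5 CPM in PBS-treated 5×FAD granule neurons, against 64.8 CPM in treated and 222 CPM in PBS-treated 5×FAD CA1 neurons (interaction 2.94). For Dpyd, the first enzyme of pyrimidine breakdown, granule levels differed little, at 410.3 CPM in treated and 475 CPM in PBS-treated 5×FAD, whereas CA1 levels were 88.7 and 343 CPM (interaction 1.92). C1ql3, Shisa4 and Prelid3a, whose p-values were among the smallest in granule neurons, did not pass the interaction test.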

How the data were processed

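RNA of 6 hippocampal suspensions was captured with the 10x Chromium 3′ kit, per the labels' protocols. Each deposited matrix gives UMI counts for 32285 genes as whole numbers that the authors did not normalise. The file headers name Cell Ranger 7.1.0, the labels name mm10, and the submitters' processing notes add Seurat 4.3.0.1. The sources used here do not say if intronic reads were counted.

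Barcodes with at least 500 genes, 1000 UMIs and at most 15% mitochondrial UMIs were kept, 44736 of 50224. Library totals ran from 32528417 to 76780861 UMIs. Barcode doublets were kept in the main analysis, and an alternative removed the highest Scrublet scores (scanpy 1.11.5). The granule neurons and the gene lists were chosen with earlier results of these data known, and the lists of dorsal and ventral granule genes after these data were seen. Panel and filter genes stayed in the fits, in the adjustment of p-values and in the counts over all genes. They were left out of the list counts and of the named genes.

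Counts were summed per library over members and fitted over all 6 libraries with edgeR 4.0.16 in R 4.3.3, using TMM factors, filterByExpr and the quasi-likelihood F test. P-values were adjusted by Benjamini-Hochberg over all genes tested, with a threshold of 0.05, and standard errors are the log2 difference over the root of F. The script was tested on simulated data. The fit with sums of granule and CA1 neurons used library as a block. Genes were named by a fixed rule, namely those with an adjusted p below 0.05 or, with fewer than 10 such genes, the 10 smallest p at 20 CPM or more, the 8 smallest interaction p, up to 4 members of each list by p, and a short set of granule and disease genes. DESeq2 1.42.0, other filters, sizes and subsets were alternatives. Coordinates are from GENCODE vM21 by gene ID. Python 3.11.15 with numpy 2.4.6, scipy 1.17.1 and pandas 2.3.3 was used elsewhere.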

Additional observations from a re-analysis of the deposited data

Results flagged for a closer look

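The values here were flagged because the difference between groups itself differed between granule and CA1 neurons by the edgeR interaction test. Each is a log2 difference in granule neurons minus that in CA1 neurons, for the 8 genes of smallest p per comparison, and all passed an adjusted p of 0.05. The CA1 sums rested on as few as 25 neurons per library, and their part in these values was not tested.

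For treated against PBS-treated 5×FAD, the interaction was 3.15 for Trps1, 3.03 for Rgs6, a regulator of G protein signalling, 2.94 for Spock1, 1.92 for Dpyd, 1.84 for the receptor phosphatase Ptprk, 1.78 for the kainate receptor auxiliary gene Neto1, 1.49 for the protocadherin Pcdh7 and 1.46 for Mir100hg. Rgs6 averaged 69.1 CPM in treated and 44.8 CPM in PBS-treated 5×FAD granule neurons, while CA1 neurons had 30.3 CPM in treated and 128 CPM in PBS-treated 5×FAD.

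For PBS-treated 5×FAD against wild type, it was -1.75 for Trps1, -1.67 for Vwc2l, -1.43 for the calcium-binding gene Necab1, -1.40 for Gm20713, -1.33 for Spock1, -1.22 for Zfp462, -1.10 for Pcdh7 and -1.03 for Mir100hg. Trps1, Spock1, Pcdh7 and Mir100hg thus stand in both lists with opposite signs, and the PBS-treated 5×FAD libraries enter both comparisons.

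For treated 5×FAD against wild type, it was 2.40 for Fstl5, 2.19 for Maml2, 1.67 for Dpyd, 1.50 for the cation channel Trpm3, 1.42 for Far2, 1.28 for Neto1, 1.19 for A830018L16Rik and -1.10 for the sarcoglycan Sgcz.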

How the results depend on the processing

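Of 3126 values of 175 named gene results under up to 18 alternatives, 2592 kept direction and side of the threshold, 505 passed the threshold only in the alternative and 29 reversed. The calls among all genes were less stable, and the cause was not tested. Counts below are in the order treated against PBS-treated 5×FAD, PBS-treated 5×FAD against wild type, treated 5×FAD against wild type. DESeq2 called 357, 42 and 1382 genes in granule neurons, and 10, 1 and 0 as interactions with CA1 neurons. Dropping the filter on low counts gave 557, 98 and 1977. A fit of the 2 groups alone gave 2356 for treated against PBS-treated 5×FAD. Members without a mitochondrial UMI gave 8 for that comparison and 550 for treated 5×FAD against wild type, members with one 3 and 20, and 771 members per library 5 and 436. Members with Glis3 and no Gad UMI gave 121 for treated 5×FAD against wild type. Interaction calls were 27, 18 and 2 without a mitochondrial UMI, 20 with one for PBS-treated 5×FAD against wild type, 47, 4 and 12 with equal members, 14, 6 and 0 with CA3 neurons, 64 with Glis3 and no Gad UMI for PBS-treated 5×FAD against wild type, and 65 for treated against PBS-treated 5×FAD and 15 for treated 5×FAD against wild type without doublets.

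With 1 library left out, granule calls ranged from 0 to 2342, 0 to 3495 and 0 to 5706, with every count above 0 coming from leaving out a wild-type library. Interaction calls ranged from 29 to 127, 4 to 100 and 10 to 63. Share differences ranged from -16.8 to -14.2, 6.88 to 12.1 and -8.60 to -3.34 points. With a panel sum of at least 5 the share difference was -18.4 points for treated against PBS-treated 5×FAD and 13.5 points for PBS-treated 5×FAD against wild type, and for treated against PBS-treated 5×FAD it was -18.0 without and -11.0 points with a mitochondrial UMI.

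Whether the replicate numbers of the titles pair the libraries could not be decided, since 2 libraries per group are too few. Deviations of same-numbered libraries from their group means correlated at -0.10 between the 5×FAD groups, -0.16 between PBS-treated 5×FAD and wild type and -0.12 between treated 5×FAD and wild type. With the replicate block edgeR called 0, 0 and 0 genes, and 2240, 1006 and 3827 had an unadjusted p below 0.05.

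Lrrtm4, at -0.01 for PBS-treated 5×FAD against wild type, was 0.0058 with RLE factors and with DESeq2, 0.00077 with the 2 groups alone, 0.027 without and 0.0054 with a mitochondrial UMI, 0.0069 with equal members, 0.019 with Glis3 and no Gad UMI, and between -0.080 and 0.084 with a library left out. Leaving out 1 library gave ranges across 0 for Lrrtm4 in treated against PBS-treated 5×FAD (-0.22 to 0.0026) and treated 5×FAD against wild type (-0.22 to 0.0057). For treated against PBS-treated 5×FAD it did so for Arc (-0.41 to 0.79), Calb1 (-0.065 to 0.078) and Pdyn (-0.66 to 0.10), and for PBS-treated 5×FAD against wild type for C1ql2 (-1.31 to 0.61), Bdnf (-0.49 to 0.17), Gabrd (-0.39 to 0.074) and Nr3c2 (-0.0043 to 0.13), each of these 4 by a wild-type library. Pdyn in treated 5×FAD against wild type ran from -0.12 to 0.84. Calb1, at 0.00 between the 5×FAD groups, was -0.019 without the filter, -0.030 at a panel sum of 5 and -0.18 with a mitochondrial UMI. Pdyn in that comparison was 0.076 with equal members and 0.070 with Glis3 and no Gad UMI. Without a mitochondrial UMI, Apoe was -0.0025 for PBS-treated 5×FAD against wild type, and Penk 0.081 and Tsc22d3 -0.055 between the 5×FAD groups.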

Other observations

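Granule neurons differ along the long axis of the hippocampus, and genes known for its dorsal and ventral ends in mouse were listed after the other results had been seen. The dorsal genes Lct, Gsg1l and Spata13 summed to 132 and 124 CPM in treated 5×FAD, 124 and 145 CPM in PBS-treated 5×FAD, and 94.5 and 94.3 CPM in wild type. Both wild-type libraries were the lowest. Gsg1l, an AMPA receptor auxiliary protein, had 82.8 and 72.0 CPM in treated 5×FAD, 72.4 and 85.2 CPM in PBS-treated 5×FAD, and 48.3 and 54.1 CPM in wild type (0.63 ± 0.14 for PBS-treated 5×FAD against wild type, edgeR adjusted p = 0.410).

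The ventral genes Trhr, Cpne7, Grp and Nr2f2 summed to 58.4 and 61.8 CPM in treated 5×FAD, 83.7 and 63.4 CPM in PBS-treated 5×FAD, and 141 and 89.2 CPM in wild type, with 1 wild-type library far above the other. Grp, the gastrin-releasing peptide precursor, had 5.62 and 4.48 CPM in treated 5×FAD, 12.7 and 13.7 CPM in PBS-treated 5×FAD, and 23.1 and 16.1 CPM in wild type (-1.38 ± 0.26 for treated against PBS-treated 5×FAD, edgeR adjusted p = 0.144). Nr2f2, a nuclear receptor of ventral hippocampus, had 4.53 and 2.65 CPM in treated 5×FAD, 8.34 and 8.21 CPM in PBS-treated 5×FAD, and 14.7 and 9.92 CPM in wild type. Both 5×FAD groups thus had higher dorsal and lower ventral sums than wild type in granule neurons of these libraries. The dorsal genes were not uniform, since Lct had a log2 difference below 0 for PBS-treated 5×FAD against wild type and the other 2 were above 0. The ventral genes were not particular to granule neurons. Their CA3 sums were higher, at 271 and 202 CPM in treated 5×FAD, 270 and 270 CPM in PBS-treated 5×FAD, and 384 and 296 CPM in wild type. The part of dissection along the long axis was not tested.

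Other lists gave these counts for treated against PBS-treated 5×FAD at an unadjusted p below 0.05, where 8.87% of all genes were higher and 8.36% lower. Mossy fibre and perforant path adhesion genes had 2 higher and 5 lower of 22 (median -0.15), late activity genes 2 and 3 of 12 (median -0.10), chaperones and endoplasmic reticulum stress genes 0 and 6 of 20 (median -0.40), and lysosome and autophagy genes 1 and 4 of 20 (median -0.19). Growth factor, Wnt and Notch genes had 3 higher and 1 lower of 13, calcium signalling genes 3 and 2 of 19, interferon and class I antigen genes 0 and 2 of 11, and nuclear long noncoding RNAs 3 and 1 of 11, where Malat1 was lower, with 52698 and 49854 CPM in treated 5×FAD, 80739 and 82619 CPM in PBS-treated 5×FAD, and 66726 and 83884 CPM in wild type (-0.67 ± 0.11).

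One wild-type library also stood apart for Atp6v0c, a subunit of the vacuolar proton pump, with 60.3 and 61.8 CPM in treated 5×FAD, 98.6 and 117 CPM in PBS-treated 5×FAD, and 374 and 123 CPM in wild type.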
